A study of Mus musculus with 18 samples.

Results

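The 80 genes described here encode the proteins of the cytosolic ribosome. They are the protein-coding genes of the mouse GENCODE annotation whose symbol is Rpl or Rps followed by a number and an optional letter, with Rplp0, Rplp1, Rplp2 and Rpsa added, out of 21951 protein-coding genes in all. The rule gives 49 genes starting with Rpl (large subunit) and 31 starting with Rps (small subunit), and takes in 4 paralogues whose symbols end in l, namely Rpl3l, Rpl10l, Rpl39l and Rps27l. Pseudogenes and Rps6k genes were left out.

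N6-methyladenosine (m6A) is the most common internal modification of mRNA. It is placed mainly in the nucleus by a complex whose catalytic subunit is Mettl3, in a short sequence context of which GGAC is a frequent form, and it is found mostly in long internal exons, near stop codons and in 3′ UTRs. Stretches close to exon junctions carry little of it. The mRNAs of cytosolic ribosomal proteins are among the most abundant and stable in growing cells, and they are short and cut by several introns. m6A-seq fragments RNA, enriches the fragments that an antibody against m6A binds, and sequences them beside an unenriched input. Antibodies of this kind also bind m6Am, a methylated adenosine at the mRNA cap that Mettl3 does not make.

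The study set naive mouse embryonic stem cells (ESCs) against differentiated cells in 18 samples of strain C57BL/6. ESCs labelled BVSC, grown without serum on LIF and the inhibitors CHIR99021 and PD0325901 (2i), gave 3 enriched libraries, A, B and C. Embryoid bodies (EBs, aggregates in which ESCs differentiate) were grown from ESCs in serum for 8 to 21 days and gave 3 more. Mouse embryonic fibroblasts (MEFs) came from E13.5 embryos and gave 2, and Mettl3-KO ESCs gave 1. The labels do not say whether the knockout cells were 1 clone. Each enriched library had an input. The values here are peak positions on build mm10: 7 lists of single libraries and a final list per cell type made by the authors, without score or read count. The 7 library lists held 2043 (knockout) to 21509 peaks (EB replicate B), sequencing depth is unknown, and RNA levels were not analysed here. A gene without a peak may lack m6A or may have gone undetected, and these cannot be told apart. Of 6 ESC marker genes, 4 to 6 had a peak in each ESC and EB library, and of 4 endoderm markers all 4 in each EB library and 2 to 4 in each ESC library. The final MEF list held Thy1 and Pdgfrb of 5 fibroblast markers, and Col1a1, Col1a2 and Col3a1 had no peak there. Of the same 5 markers, 1 to 3 had a peak in each ESC and EB library, so they do not set the MEF list apart. A peak is no expression level, so these counts do not settle what the cells were.

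The sequences below show the GGAC sites of Rpl10l beside Rpl10, and those of Rpl39l and Rpl29 that lay under a peak. Each is 30 bases of the mm10 genome on the strand of the mRNA, with GGAC, or the 4 bases aligned with it, in capitals. The first 6 show 3 GGAC sites in the coding sequence of Rpl10l, an intronless relative of Rpl10, each followed by the aligned stretch of Rpl10. The next lines give the GGAC just past the stop codon of Rpl10l and a GGAC in the 3′ UTR of Rpl39l. Rps27l, the gene with peaks in the most libraries, has no GGAC. The last line stands for Rpl29 and 2 of its copies, which hold the same 30 bases.
Rpl10l mRNA base 206, chr12:66284180-66284209, minus strand: gccacatggtgtcGGACgagtatgagcagc
Rpl10 aligned with it, chrX:74271866-74271895, plus strand: gccatatggtgtcAGATgaatatgagcaac
Rpl10l mRNA base 290, chr12:66284096-66284125, minus strand: agagctgtggcaaGGACggcttccacatcc
Rpl10 aligned with it, chrX:74272221-74272250, plus strand: agagttgtggcaaGGATggctttcatatcc
Rpl10l mRNA base 662, chr12:66283724-66283753, minus strand: aacgaggtcctctGGACaagtggcgagccc
Rpl10 aligned with it, chrX:74273027-74273056, plus strand: atcgtggtcctctGGACaagtggagagccc
Rpl10l 3′ UTR, mRNA base 690, chr12:66283696-66283725, minus strand: cctgcattcctgaGGACtttgctggcagaa
Rpl39l 3′ UTR, chr16:10174511-10174540, plus strand: gttaccgctgtctGGACagctgagtgtgtt
Rpl29 3′ UTR, mRNA base 644, chr9:106431466-106431495, plus strand: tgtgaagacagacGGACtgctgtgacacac

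Few of these genes had a peak. A gene counted as having one where at least 1 bp of a peak lay on an exon of any of its transcripts, on either strand. On the 80 genes, peaks were found on 3, 14 and 2 (3.75%, 17.5% and 2.5%) in ESC replicates A, B and C, where 25%, 44.1% and 39.2% of all protein-coding genes had one. EB replicates A, B and C had peaks on 3, 5 and 3 of them (3.75%, 6.25% and 3.75%), against 40.3%, 45.1% and 31.5% of all protein-coding genes. In each of these 6 libraries the share of ribosomal protein genes was thus below that of all genes, with differences from -38.9 to -21.2 percentage points. Over the 7 libraries, 15 of the 80 genes had a peak in at least 1 (18.75%, against 60.3% of all protein-coding genes), 11 of the 49 Rpl genes and 4 of the 31 Rps genes. The other 65 genes had none in any library or final list, among them Rplp0, Rplp1 and Rplp2 of the ribosomal stalk and Rpsa. No list held a peak that lay only in an intron of a ribosomal protein gene.

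**Figure D1:**
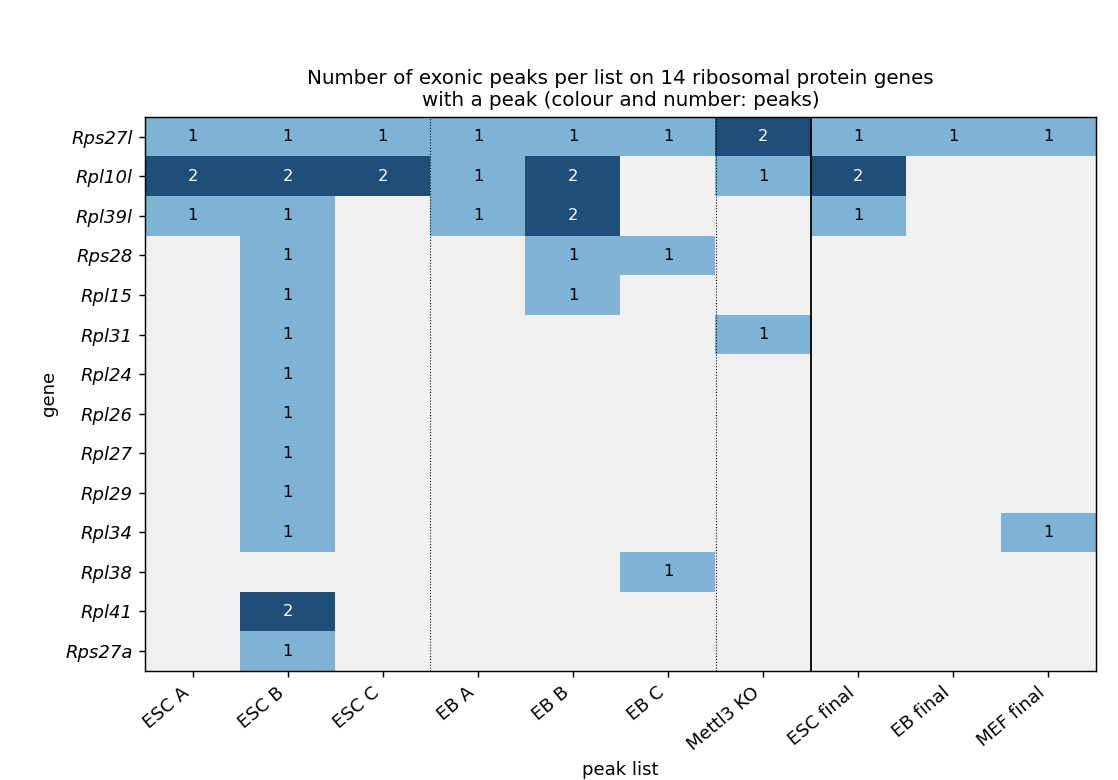
Number of exonic peaks (colour and printed number; light grey is 0) on 14 of the ribosomal protein genes with a peak, by list: 3 ESC, 3 EB and 1 Mettl3-knockout library and the 3 final lists. Rps27l has a peak in all 10 lists, and the column of ESC replicate B holds the most genes.

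Peaks in 3 or more libraries were found on Rps27l, Rpl10l, Rpl39l and Rps28. A peak in every ESC library was found on 2 genes (background 22.1%), a peak in every EB library on 1 (27.2%) and a peak in all 6 on 1, Rps27l (19.5%). At least 3 of the 7 libraries had a peak on 4 genes, Rps27l (7 libraries), Rpl10l (6), Rpl39l (4) and Rps28 (3), where 39.7% of all protein-coding genes reached that number. No gene had peaks in the 3 ESC libraries without any in EBs (background 0.146%), or the reverse (0.483%). Of the 40 library peaks on ribosomal protein genes, 23 lay on the 4 paralogues, with 10 on Rpl10l, 8 on Rps27l, 5 on Rpl39l and 0 on Rpl3l. The other 76 genes had 17 peaks on 12 genes. Among those 76, ESC replicates A, B and C had 0, 11 and 0 genes with a peak, EB replicates A, B and C had 0, 2 and 2, and the knockout 1. The paralogues were set apart by the ending of their symbols after the peaks had been seen.

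Rps27l, a small-subunit protein paralogous to Rps27 and known in mouse and human cells as a target of p53, had a peak over its first exon and the start of its first intron in all 7 libraries. On chromosome 9 the peak spanned 66946062 to 66946247 in ESC replicate A, 66946098 to 66946247 in B and 66946097 to 66946239 in C. In EB replicates A, B and C it spanned 66946105 to 66946223, 66946105 to 66946229 and 66946094 to 66946242, and in the knockout 66946115 to 66946222. The centres lay 2 to 20 nt before the start codon in the ESC libraries and 7 to 11 nt before it in the EB libraries, so the position hardly moved between cell types. Its width was 160 bp ± 23.1 (SD, n = 3) in ESCs, 131 bp ± 15.9 (SD, n = 3) in EBs and 108 bp in the knockout, and the ESC and EB widths overlapped. The final ESC, EB and MEF lists hold it too. The 499 nt mRNA contains no GGAC, as do 3 of the 80 genes (3.75%, against 2.21% of all protein-coding genes). The knockout library had a further peak in coding sequence at 66946819 to 66946938, 54 nt past the start codon, that no other library overlapped. Rps27 had no peak in any list. The coding sequences of both genes are identical at 76.1% of aligned bases, with a longest identical stretch of 11 nt. Rps27 has 5 copies by the search described below, and no library had a peak on them. Among them is Rps27rt, 100% identical over 98.8% of the mRNA. Whether reads of Rps27 were lost to its copies was not tested.

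Rpl10l, known in mouse as an autosomal gene expressed in the male germ line that stands in for X-linked Rpl10 during meiosis, had peaks at both ends of its mRNA. It is a single-exon gene on chromosome 12 (66283379 to 66284401, minus strand) with an mRNA of 1023 nt, and no other of the 80 genes lacks introns. The peak at the 5′ end spanned 66284143 to 66284425 in ESC replicate A, 66284096 to 66284407 in B and 66284237 to 66284401 in C. It spanned 66284186 to 66284369 in EB replicate A and 66283961 to 66284389 in B. The knockout library had it at 66284277 to 66284389, with its centre 24 nt past the start codon, and EB replicate C had no peak on the gene. Its width was 253 bp ± 77.9 (SD, n = 3) in ESCs, 184 and 429 bp in the EB libraries that had it, and 113 bp in the knockout. The peak in the 3′ UTR spanned 66283556 to 66283702 in ESC replicate A, 66283490 to 66283716 in B, 66283546 to 66283724 in C and 66283426 to 66283700 in EB replicate B. It was in no other EB library and not in the knockout, so the end of Rpl10l near its start codon had a knockout peak and the end past its stop codon had none. Of all knockout peaks centred in protein-coding mRNAs, 1.11% lay in the 3′ UTR and 81.0% within 200 nt of the mRNA start, so this split is that of the library as a whole. With 1 knockout library it has no replicate check. The final ESC list holds both peaks, and the final EB and MEF lists neither.

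Rpl10, the large-subunit protein that joins late in assembly near the peptidyl transferase centre, had no peak in any list. Its coding sequence matches that of Rpl10l at 84.8% of 645 bases, with no identical stretch longer than 23 nt, but it is cut into 7 exons. The GGAC at base 206 of Rpl10l lay under a peak in ESC replicates A and B and EB replicates A and B, and the one at base 290 in ESC replicate B and EB replicate B. The aligned bases of Rpl10 are no GGAC in either case, as the lines above show, and lie 27 and 57 nt from an exon junction. At base 662 both genes have GGAC, 127 nt from the nearest junction in Rpl10, and no library had a peak over it in Rpl10l. The GGAC at base 690 lay under a peak in ESC replicates B and C. Rpl10 has 2 GGAC in all, the other being 28 nt from a junction. A copy of Rpl10l on chromosome 2, Gm14460 (97.5% identical), had no peak. By the same search, described below, Rpl10 has 9 copies, and no library had a peak on them. Among them is Rpl10-ps3, 100% identical over 94.6% of the mRNA. Whether reads of Rpl10 were lost to its copies was not tested, so its lack of a peak may not be a lack of m6A.

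**Figure D2:**
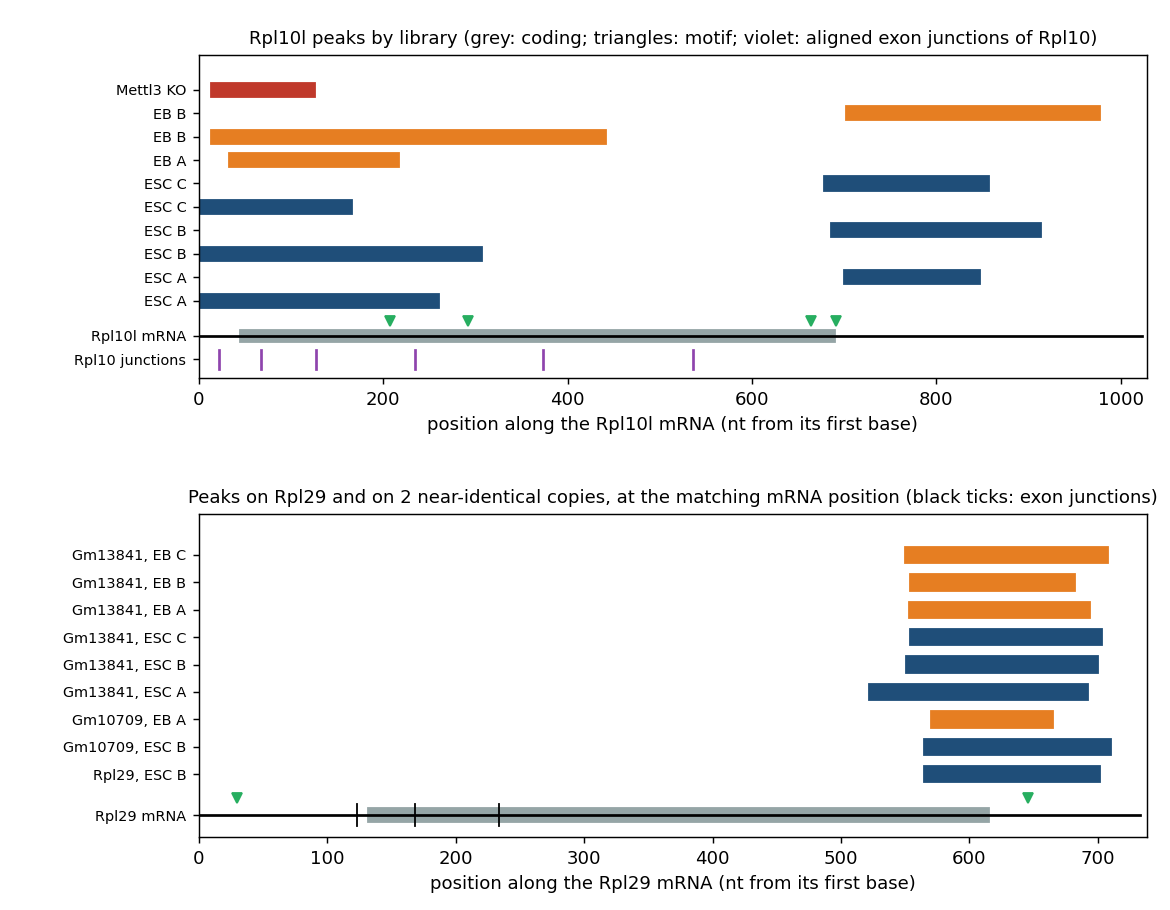
Peaks of single libraries (blue ESC, orange EB, red Mettl3 knockout) along the Rpl10l mRNA (top) and on Rpl29 and its copies Gm13841 and Gm10709 at the matching base of the Rpl29 mRNA (bottom), in nt from the first base, with coding sequence in grey, GGAC as triangles, exon junctions of Rpl29 as black ticks and those of Rpl10 as violet ticks. Rpl10l has a group of peaks at each end and only the 5′ group holds a knockout peak, in a library with 1.11% of its mRNA peaks in 3′ UTRs; the Rpl29 family has a single group, around the stop codon.

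Rpl39l, a relative of the X-linked Rpl39 that is known in mouse for its expression in male germ cells, had peaks at its start and at its stop codon. On chromosome 16 the start peak, across the end of an exon, spanned 10170270 to 10170411 in ESC replicate A, 10170262 to 10170368 in ESC replicate B and 10170291 to 10170386 in EB replicate B. The other peak spanned 10174406 to 10174538 in EB replicate A and 10174410 to 10174531 in EB replicate B, centred 7 and 6 nt past the stop codon and holding the GGAC shown above. No ESC library had this second peak, and EB replicate C had neither, so it was in 2 of 3 EB and 0 of 3 ESC libraries. The final ESC list has the start peak, and the knockout had no peak on the gene. Rpl39 had none in any list; both coding sequences have 156 bases, 85.3% of them identical. Rpl3l, the striated-muscle relative of Rpl3, had no peak in any list, and neither had Rpl3.

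Rps28, a small-subunit protein, was the remaining gene with a peak in 3 libraries. The peaks, at 33819067 to 33819168 of chromosome 17 in ESC replicate B, 33819068 to 33819171 in EB replicate B and 33819046 to 33819181 in EB replicate C, lay outside its main transcript, 5356 to 5362 bp from its nearest annotated start. They are on an exon of a longer Rps28 transcript that overlaps an exon of Kank3 on the opposite strand, and strand was not used, so they cannot be assigned to either gene. Without peaks shared between genes, 13 of the 80 genes had a peak in any library. Rpl15, a large-subunit protein, had a peak in ESC replicate B (111 bp) and EB replicate B (95 bp), on an exon near its start.

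The knockout library had peaks on 3 of the 80 genes (3.75%, Wilson 95% interval 1.28 to 10.5, counting error only), Rps27l, Rpl10l and Rpl31, beside 8.37% of all protein-coding genes. Rpl31, a protein at the exit tunnel of the large subunit, had a peak at 39367934 to 39368020 of chromosome 1 there and at 39367932 to 39368033 in ESC replicate B, and in no other list. Both are centred about 50 bp from an annotated start (48 and 54 bp) and hold a GGAC. Among the 4 knockout peaks on ribosomal protein genes, 3 were centred within 200 bp of an annotated start (75%), as were 74.8% of knockout peaks on all protein-coding genes.

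A larger share of peaks on ribosomal protein genes than of peaks on all protein-coding genes lay near annotated starts in each ESC and EB library, though in EB replicate B most did not. In ESC replicates A, B and C, 3 of 4, 11 of 16 and 2 of 3 peaks were centred within 200 bp of the start of a transcript (75%, 68.75% and 66.7%), against 14.3%, 23.3% and 12% of the peaks on all protein-coding genes. In EB replicates A, B and C it was 2 of 3, 3 of 7 and 2 of 3 (66.7%, 42.9% and 66.7%), against 16.0%, 20.5% and 16.8%. Rps27l and Rpl10l together gave 12 of the 26 such peaks of the 7 libraries, so many of them repeat the same gene. Of the 40 peaks, 26 were centred in the main mRNA, 10 in the 5′ UTR (38.5%), 8 in coding sequence (30.8%) and 8 in the 3′ UTR (30.8%). Over all protein-coding genes the ESC and EB libraries had 9.76% to 18.8%, 49.6% to 56.1% and 28.0% to 40.5% there. The knockout had 55.4%, 43.5% and 1.11%. Rps27l alone gave a 5′ UTR centre in each of the 7 libraries, so the 5′ UTR share largely repeats 1 gene. GGAC lay within 50 nt of the centre in 4 of these 26 (15.4%), against 52.0% to 58.9% of mRNA peaks on all protein-coding genes in the ESC and EB libraries and 41.6% in the knockout. Rps27l, which has no GGAC, gave 8 of the 26 and Rpl10l gave 10. The 26 also pool all 7 libraries, with 3 peaks from the knockout. The share thus rests on few genes counted repeatedly and is no share of genes. Within 100 nt the share was 46.2%, so the small number near the centre depends on the window. The shares of all genes above are for 50 nt and cannot be set beside this value.

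ESC replicate B stood apart from the other libraries. It had 16 of the 40 peaks, and 8 genes had a peak there and in no other library (10% of the 80 genes, against 3.07% of all protein-coding genes). Among them are Rps27a (a ribosomal protein made as a fusion with ubiquitin), Rpl24, Rpl26, Rpl27, Rpl29, Rpl34 and Rpl41 (the shortest of the ribosomal proteins). Only 7 of the 16 peaks (43.75%) were overlapped by a peak of another library, where 84.4% of that library's peaks on all protein-coding genes were. Their median width was 110.5 bp, against 164 bp for all. Rpl34 also had a 5′ UTR peak among the final MEF peaks, at 130730143 to 130730242 of chromosome 3, which overlapped that of ESC replicate B at 130730203 to 130730308. The Rpl24 peak touched its exon by 20 bp and shares the exon with a further transcript, Gm28037. Outside ESC replicate B, a peak in 1 library alone was found on Rpl38 (EB replicate C, 120 bp, 5′ UTR), known in mouse for its part in the translation of Hox mRNAs. Without ESC replicate B, 7 of the 80 genes had a peak in any library in place of 15.

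The ranges of the EB and ESC libraries overlapped in each measure below. Each difference between EBs and ESCs was smaller than the SD of the ESC libraries and larger than that of the EB libraries. The number of ribosomal protein genes with a peak was 6.33 ± 6.66 (SD, n = 3) in ESCs and 3.67 ± 1.15 (SD, n = 3) in EBs, a difference of -2.67 that turned to 1.17 without ESC replicate B, and the groups overlapped. As peaks per 1000 peaks of the library, the values were 0.380, 0.807 and 0.170 in ESCs (mean 0.452 ± 0.325) and 0.165, 0.325 and 0.243 in EBs (mean 0.244 ± 0.0803). The highest was ESC replicate B, replicate A lay above the EB range and replicate C inside it. The gap to all protein-coding genes was -28.2 ± 7.86 percentage points in ESCs and -34.4 ± 5.86 in EBs, with overlapping ranges. Leaving out ESC replicate B moved the difference per 1000 peaks from -0.208 to -0.0306.

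The final lists of the authors held 3, 1 and 2 of the 80 genes for ESCs, EBs and MEFs, where 29.6%, 25.8% and 24.7% of all protein-coding genes had a peak. By exon overlap the ESC list had Rpl10l, Rpl39l and Rps27l, the EB list Rps27l, and the MEF list Rps27l and Rpl34. The symbols given in the lists named 4, 1 and 3 genes. The further ESC name is Rpl29, given to a peak on chromosome 5, while Rpl29 is on chromosome 9. The further MEF name is Rpl24, given to 2 peaks that lay 18960 and 35441 bp from it, on exons of Zbtb11 and Pcnp.

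More library peaks lay on copies of Rpl29, a large-subunit protein, than on the gene. Its own locus had 1 peak, at 106431400 to 106431536 of chromosome 9 in ESC replicate B, centred 19 nt past the stop codon. Gm13841, a copy on chromosome 5 (115801558 to 115802209, 99.2% identical), carried a peak in each of the 6 ESC and EB libraries and none in the knockout. It spanned 115801600 to 115801769, 115801592 to 115801740 and 115801589 to 115801737 in ESC replicates A, B and C, and 115801598 to 115801738, 115801610 to 115801737 and 115801584 to 115801741 in EB replicates A, B and C. Read on the Rpl29 mRNA, these peaks ran from base 522 at the earliest to base 707 at the latest, around the stop codon that ends at base 614 and over the GGAC at base 644. A further copy on chromosome 9, Gm10709 (99.4% identical), had a peak at the same place in ESC replicate B and EB replicate A. All 3 loci hold the same 30 bases around that GGAC. Reads that lie wholly within a shared stretch cannot be placed in 1 locus by sequence. Longer reads may reach bases that differ, and read length was not looked at here. The sources used here do not state how the authors treated reads with several matches. Whether the peaks on the copies come from RNA of Rpl29 or of the copies is therefore not known.

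Copies are common in this gene family. Searching each main mRNA against the genome found 285 other stretches at least 95% identical over at least 80% of the mRNA, belonging to 38 of the 80 genes, with 1 copy of Rpl10l and up to 29 (Rpl7a). A peak lay on 3 of the 285, those named above and the Rpl41 copy Gm10076 on chromosome 14 in ESC replicate B. Of the 15 genes with a peak, 8 had such a copy. With at least 90% identity over at least 50% of the mRNA, 12 of 804 copies of 60 genes had a peak. Loss of reads to copies was not measured for any gene.

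The mRNAs of the 80 genes differ in build from other mRNAs. Their median length was 819 nt (quartiles 595 and 1107) against 2408 nt for 21851 protein-coding genes with a main mRNA, with a median 3′ UTR of 89 nt against 659 nt and a longest internal exon of 152 nt against 214 nt. They held a median of 3 GGAC against 10, but 3.61 per kb against 4.01. A median of 76.9% of their bases lay within 100 nt of an exon junction, against 37.8%, and 41 of the 80 (51.25%) had no GGAC at least 100 nt from every junction, against 10.8% of all. Genes with and without a peak had median lengths of 677 and 878 nt, and medians of 76.6% and 77.6% of bases near a junction. The first annotated 5 bases were a C followed by 4 pyrimidines, as in the 5′ terminal tract known for these mRNAs, in 8 of the 80 genes (10%, against 2.11%). They were 8 of the 65 without a peak (12.3%) and none of the 15 with a peak, too few genes to tell these shares apart. Annotated starts of the main mRNA were used and actual starts were not measured. The 10% is therefore no share of mRNAs that carry the tract.

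**Figure D3:**
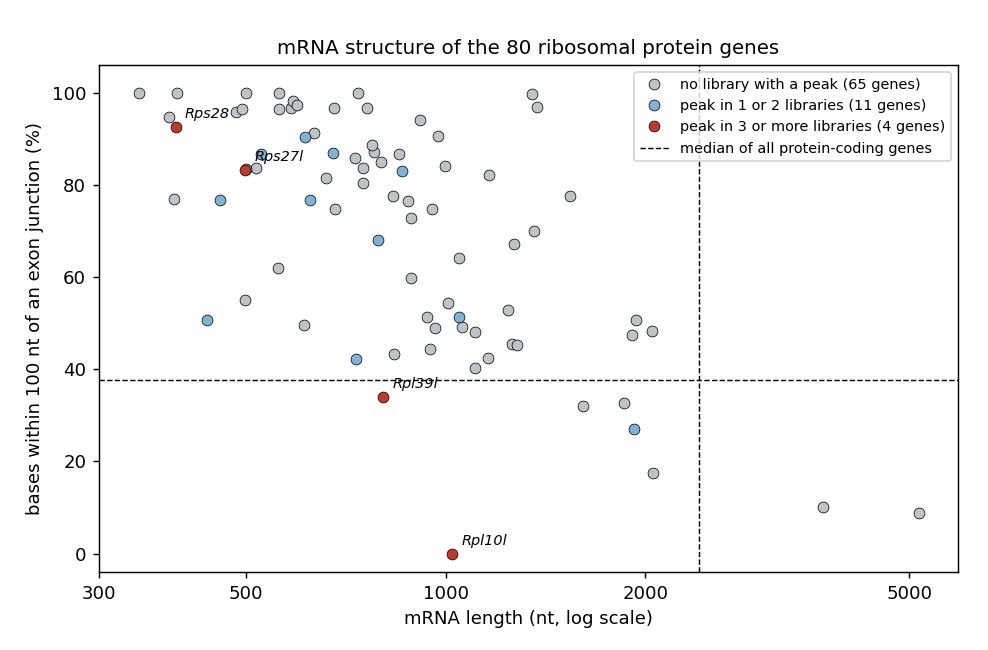
Length of the main mRNA (nt, log scale) against the share of its bases within 100 nt of an exon junction (%), 1 point per ribosomal protein gene, coloured by the number of the 7 libraries with a peak, with dashed lines at the medians of all protein-coding genes (2408 nt and 37.8%). Most genes lie at the upper left, and Rpl10l, with no junction, lies at 0%.

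The shares were also set beside those of other genes of like build. Among other protein-coding genes with an mRNA under 1000 nt and at least 3 exons, 549 of 1702 (32.3%) had a peak in any library, against 12 of the 54 ribosomal protein genes of that class (22.2%). Of these 12 genes, 11 had a peak in ESC replicate B, so the any-library share depends on that library. There, 20.4% of the ribosomal protein genes and 22.3% of the others of the class had a peak. In the other ESC and EB libraries the share of the ribosomal protein genes was lower, at 3.70% against 7.64% in ESC replicate A and 1.85% against 14.4% in C. In EB replicates A, B and C it was 3.70% against 16.3%, 5.56% against 19.1% and 5.56% against 11.4%. Genes of any length without a GGAC at least 100 nt from a junction had a peak in any library in 29.3% of 2310 others and 17.1% of 41 ribosomal protein genes. By length, the order over any library turned in the shortest class, on few genes. Under 500 nt, 4 of 11 ribosomal protein genes had a peak (36.4%) against 16.5% of the others. These were Rps27l, Rps28, Rpl38 and Rpl41. The Rps28 peaks lay outside its main mRNA, and Rpl38 and Rpl41 each had peaks in 1 library only. Of the ribosomal protein genes with 500 to under 1000 nt, 8 of 43 had a peak (18.6%) against 25.6%. All 8 had one in ESC replicate B, where 16.1% of the others did. Of those with 1000 to under 2000 nt, 3 of 22 had one (13.6%) against 48.5%, and of those with 2000 nt or more 0 of 4 against 75.1%. RNA level, which sets what can be detected, was not measured, and its part was not tested.

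Other gene lists of translation and protein turnover had peaks more often. Of 78 mitochondrial ribosomal protein genes, whose median mRNA of 1253 nt is also short, 47.4% to 76.9% had a peak in the ESC and EB libraries, 17.9% in the knockout and 96.2% in any library. Ribosome biogenesis factors (42 genes) had a peak in 54.8% to 85.7%, initiation factors (55 genes) in 47.3% to 65.5% and proteasome subunits (39 genes) in 35.9% to 66.7% of genes. The small list of elongation factors (13 genes) had one in 23.1% to 53.8%, and cytosolic aminoacyl-tRNA synthetases (20 genes) in 55% to 85%. In each of the 6 libraries all these shares were above those of the cytosolic ribosomal protein genes, which ran from 2.5% to 17.5%. Median mRNA lengths were 2552 nt for biogenesis factors, 2367 nt for initiation factors and 1541 nt for proteasome subunits. They were 2084 nt for elongation factors and 2854.5 nt for synthetases. All these lists have longer mRNAs than the cytosolic ribosomal protein genes (median 819 nt), and the shares were not matched for length. In the knockout, 65% of synthetases, 41.0% of proteasome subunits and 35.7% of biogenesis factors had a peak. So had 25.5% of initiation factors and 15.4% of elongation factors. The share was 3.75% of cytosolic ribosomal protein genes and 8.37% of all protein-coding genes.

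**Figure D4:**
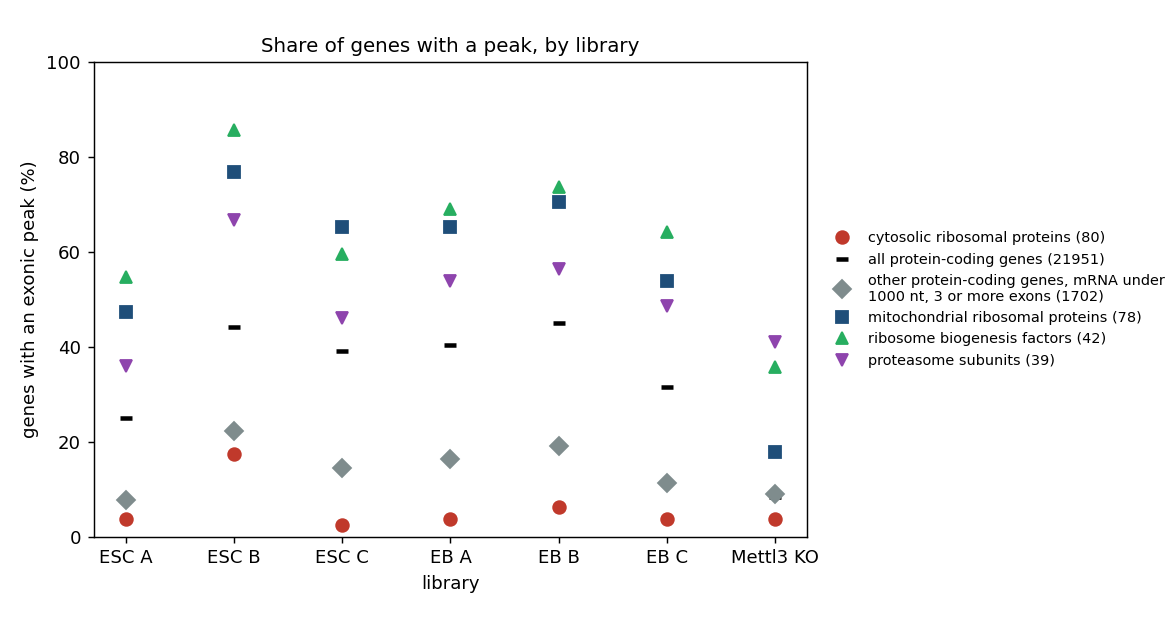
Share of genes with an exonic peak (%) in each of the 7 libraries for the 80 cytosolic ribosomal protein genes (red), all protein-coding genes (black bars), other short protein-coding genes with at least 3 exons (grey) and 3 related lists. The red points lie between 2.5% and 17.5% and are the lowest in each library.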

How the data were processed

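The build was mm10 and the tools TopHat2 2.0.10, CASAVA 1.8.2 and MACS 1.4.1, per the submitters' processing notes, which give no threshold; the peak names in the files point to a later version of MACS. The deposited values are peak positions, called by the authors per library in 7 files and joined into final lists in 3; they hold no counts, and other values were not used.

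Peaks were matched to GENCODE M21 basic exons (at least 1 bp, strand ignored). The main mRNA was chosen by APPRIS, RefSeq support and length. GGAC was sought on the transcript strand, and copies with BLAST 2.17.0. Python 3.11.15, pysam 0.24.0, SciPy 1.17.1, Biopython 1.88 and matplotlib 3.10.9 were used. Exon assignment recovered all 18090 genes seeded in 6 simulated libraries. The simulated peaks were placed on exons of those genes, so full recovery was fixed in advance. It checks that the code runs and says nothing about the calls.

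The members and lists were chosen with earlier results of these data known, so no p-value is given for counts over them; the libraries' spread and the share of all genes are given in its place. Full positions are given for genes with a knockout peak, a peak in at least 3 ESC and EB libraries, or a place on a final list. Members were also counted with the peak centre in an exon, 50 bp of overlap, main transcripts only, equal numbers of peaks and each library left out. No pairing by replicate letter was seen: deviations of same-lettered ESC and EB libraries correlated at -0.036, 0.125 and -0.0027. Those of different letters ran from -0.145 to 0.153, so this cannot tell whether same-lettered libraries were prepared together. Replicates are named biological by the series' design text. For MEF peaks, 0-based starts were assumed without a check. Not every gene is reported here by name.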

Additional observations from a re-analysis of the deposited data

How the results depend on the processing

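The difference in genes with a peak (EB minus ESC, -2.67) ranged from -4.83 to 1.17 when each library was left out, turning at ESC replicate B, and for the 76 genes without the paralogues (-2.33) from -4.17 to 1.33, turning at the same library. The gap to all genes (-6.23 points) ranged from -10.5 to -2.75 and the peaks per 1000 (-0.208) from -0.350 to -0.0306. The count with a peak in any library (15) ranged from 7 to 15. With the replicate letter as a block, the differences were again -2.67, -6.23 and -0.208, since a mean of pairs equals the difference of means. The place of peaks moved with the point used. By the first base, 73.3% of the 30 peaks with that base in the main mRNA lay in the 5′ UTR and 10% in the 3′ UTR, against 38.5% and 30.8% of the 26 with their centre there, so both the point and the peaks counted differ. GGAC was within 50 nt of the centre in 15.4% and within 100 nt in 46.2% of these 26, and anywhere in the peak in 37.5% of all 40. No share of all genes is given here by first base, within 100 nt or over whole peaks. The causes were not tested. Counts on the final lists and in the knockout stayed within 1.5 times. Depth is unknown, and a peak list gives no measure of what it missed.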

Other observations

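Some genes that resemble the 80 but fall outside the naming rule had peaks, and others had none. Of all protein-coding genes, 60.3% had a peak in any library, 19.5% in all 6 ESC and EB libraries and 8.37% in the knockout. Rpl7l1, a relative of Rpl7, had a peak in all 7 libraries and all 3 final lists. Rpl36al, a relative of Rpl36a, had one in all 6 ESC and EB libraries and in the final ESC list, and none in the knockout. Rps19bp1, which binds Rps19 and is no ribosomal protein, had one in the same 6 libraries and all 3 final lists, and none in the knockout. Rps3a1, the mouse gene for a core small-subunit protein, had one in ESC replicate B alone, and Rpl22l1 and Rps27rt had none. Rpl10-ps3, Rpl36-ps4, Rpl36a-ps1, Rpl9-ps1, Rpl9-ps6 and Rps12-ps3 also had no peak in any list. These genes were looked at after the values of the 80 were known.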
